A study of Drosophila melanogaster with 3 samples.

Results

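Neural stem cells of the fly embryo, the neuroblasts, divide so that each daughter receives different proteins, and 8 genes of this process were examined for binding by E(spl)mβ: numb, spdo, pon, mira, pros, brat, baz and insc. They are 8 of the 13945 protein-coding genes annotated on the chromosome arms and were taken as a list of names by their known roles, by a rule that names no measured value, although the list was drawn up with earlier results of these data known. E(spl)mβ is a repressor that Notch signalling switches on. Its binding was mapped by chromatin immunoprecipitation and sequencing (ChIP-seq) in embryos aged 0 to 24 h, males and females together, of the fly strain named E(spl)m-beta-GFP. This line stably expresses E(spl)mβ with GFP at its C terminus, and fragments of 200 to 800 bp were precipitated. The sample descriptions give an antibody against GFP, while the antibody field names E(spl)mβ-HLH, the fused protein. The samples are 1 group of 3 biological replicates, and no second genotype, stage or treatment was compared. The promoter that drives the transgene is not given in the sources used here. Whole embryos were used, so which cell types held a bound site, neuroblasts or others, was not measured.

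In a dividing neuroblast, Bazooka and its partners mark the apical cortex, and the adaptor Inscuteable ties this mark to the mitotic spindle. The proteins that set the fate of the smaller daughter gather at the opposite, basal cortex. Partner of numb helps to place Numb there, and Miranda carries Prospero and Brat. After division Numb blocks Notch in the daughter that inherits it, in part by acting on Sanpodo, so Notch stays active in one daughter alone.

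Each deposited list gives a summit and a signal for each peak. The signal is the authors' own enrichment value, with no unit, and it orders peaks within one list but cannot be set against another list. The lists of replicates 1, 2 and 3 and of the pooled replicates hold 30000 peaks each. The reproducible list, which the authors named for the irreproducible discovery rate (IDR), holds 8549 peaks, all of them also in the pooled list with the same signal. Ranks count from 1, the strongest peak of a list. How deeply each sample was sequenced is unknown, since the lists carry no read totals. A summit was counted at a gene when it lay in the gene body or within 5000 bp of it. It was called a promoter summit within 500 bp of a transcription start site (TSS) of that gene.

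E(spl)mβ summits were found at 7 of the 8 genes, and the exception was pon. The IDR list held 34 summits at them: 8 at their own promoters, 18 in their introns, 2 in a 5′ untranslated exon, 2 in flanking sequence and 4 at promoters of neighbouring genes. Classed by any protein-coding gene, 35.3% of the 34 were at a promoter and 52.9% in an intron. Of all IDR summits, 41.7% were at a promoter and 37.1% in an intron. Having any IDR summit is common, since 59% of all protein-coding genes had one by the same rule. A promoter summit was present at 6 of the 8 genes (numb, spdo, mira, insc, pros and brat), against 28.1% of all protein-coding genes. The count depends on weak peaks: among the 4274 strongest IDR peaks, 2 of the 8 genes (numb and brat) had one, against 18% of all protein-coding genes. An intron summit was present at 5 of the 8 (numb, insc, pros, brat and baz), against 9.62% of all protein-coding genes. Length bears on the second count: the median length was 20741 bp for the 8 genes and 2166 bp for all genes, and the 5 genes with intron summits are the 5 longest. Among other genes of like length, within a factor of 2 of each of these 5, between 37.3% and 62.8% had an intron summit. For spdo, mira and pon, which had no intron summit, the shares were 1.29%, 3.63% and 2.44%. Between 27.2% and 46.4% of the genes of like length to any of the 8 had a promoter summit. These shares are descriptions, and with 1 group no difference was tested.

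**Figure D1:**
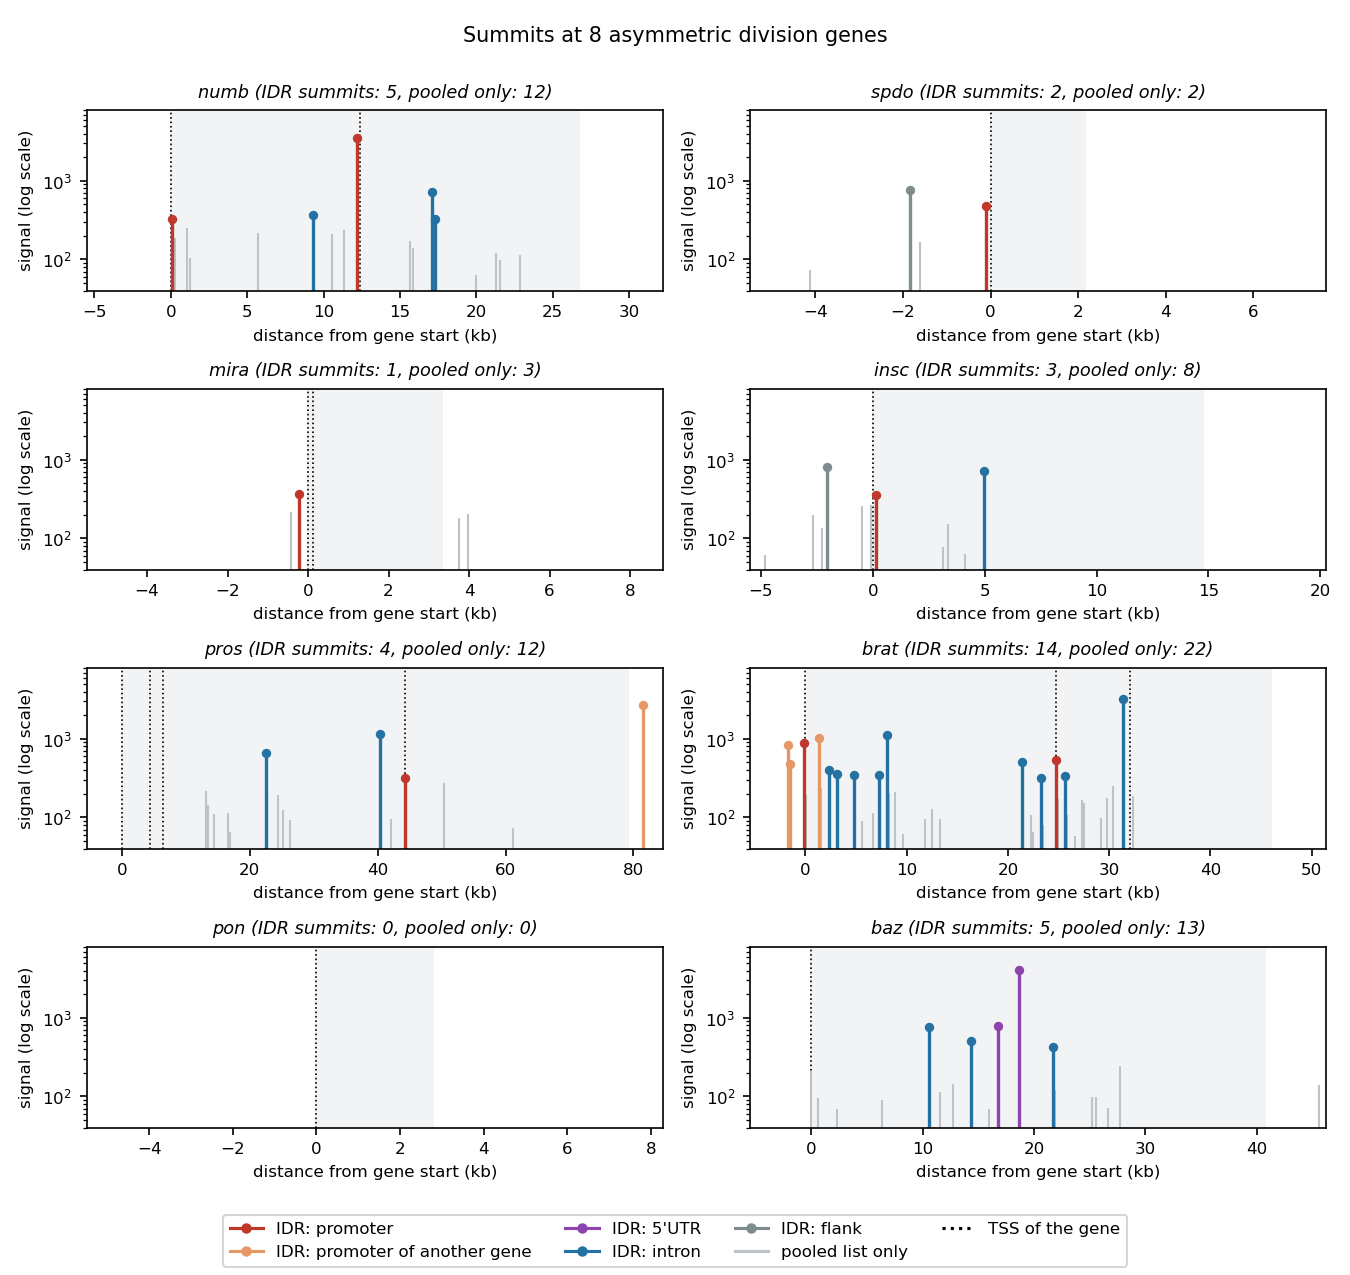
Signal (log scale) of each summit against distance from the gene's start in its direction of transcription (kb), 1 panel per gene. Coloured stems are IDR summits by class, grey stems are summits of the pooled list alone, shading is the gene body and dotted lines are TSSs. The highest stems are at an internal TSS of numb (3507), beyond the end of pros (2673), just before the third TSS of brat (3206) and in a 5′ untranslated exon of baz (4058), and pon is empty.

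numb (FBgn0002973, chr2L:9437469-9464184, plus strand) encodes the membrane-associated Notch inhibitor. It has a TSS at its start, used by 1 annotated transcript, and a second TSS 12361 bp further in, used by 2. The strongest numb summit lay 145 bp upstream of this second TSS, at 9449685, with an IDR signal of 3507 and rank 177. Replicates 1, 2 and 3 gave it signals of 1529, 737.5 and 1260.4 and ranks of 188, 215 and 171 in their own lists. The 3 ranks lie close together, and among the promoter signals of the 3923 genes with a promoter summit the gene stands 159th. The first TSS had a weak summit 73 bp downstream, with a signal of 329.8, IDR rank 7361 and replicate ranks of 6094, 11631 and 9827. The 2 TSSs of numb thus differ by more than their replicate ranks spread.

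Between and beyond the TSSs, numb had 3 intron summits. One lay 3079 bp upstream of the second TSS (signal 368.7), with ranks of 4774 and 9871 in replicates 1 and 2. Replicate 3 had no summit within 100 bp of it, and its nearest was 138 bp away at rank 12107. The other two lay 4720 and 4928 bp downstream of the second TSS, in 1 peak, 208 bp apart. The one at 4720 bp had a signal of 731.7 and ranks of 2096, 3014 and 4881 in replicates 1, 2 and 3. The one at 4928 bp had a signal of 327.2 and ranks of 6891, 12836 and 24987, so replicate 3 placed it low among its 30000 peaks.

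spdo (FBgn0260440, chr3R:30476684-30478849, plus strand) encodes Sanpodo, the transmembrane protein that promotes Notch signalling and that Numb acts upon. The gene lies within PH4alphaEFB, a longer gene of the same strand. It had a promoter summit 113 bp upstream of its only TSS, with a signal of 481.4 and IDR rank 4846. Replicates 1, 2 and 3 ranked it 3321, 5516 and 15444, with signals of 306.7, 106.2 and 47.9. Replicate 3 placed this summit far below the others, and ranked another of its summits, at position -243 from the TSS, at 8501. A stronger summit, with a signal of 771.4 and rank 2664, lay 1831 bp upstream, in an intron of PH4alphaEFB, with replicate ranks of 2115, 2201 and 4805. Which of the 2 genes this site serves was not measured.

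The DNA around 5 of the summits is shown, since the results turn on what it holds or lacks. Each run is 100 bp on either side of an IDR summit, plus strand, dm6, 5′ to 3′, and none of them overlaps an annotated exon. Capitals mark matches to the 10 short sites searched for on both strands. Hairy and E(spl) proteins are known to bind CACGTG, an E-box, as well as CACGCG, the Hairy type, and CACNAG, the N-box. Proneural factors bind GCAGCTG or its variant GCAGGTG, and the Notch effector Su(H) binds a core written GTGGGAA or in a second form GTGAGAA. The others were GAGAG for GAGA factor, CAGGTAG for Zelda and TATCGATA for DREF. A match describes the letters and does not show that the factor was there.
spdo, 1831 bp upstream (chr3R:30474753-30474953): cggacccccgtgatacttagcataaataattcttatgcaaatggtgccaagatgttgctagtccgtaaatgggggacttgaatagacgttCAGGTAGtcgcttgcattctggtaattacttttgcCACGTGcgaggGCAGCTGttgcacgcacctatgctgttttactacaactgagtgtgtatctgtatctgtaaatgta
numb, intron, 3079 bp before the second TSS (chr2L:9446651-9446851): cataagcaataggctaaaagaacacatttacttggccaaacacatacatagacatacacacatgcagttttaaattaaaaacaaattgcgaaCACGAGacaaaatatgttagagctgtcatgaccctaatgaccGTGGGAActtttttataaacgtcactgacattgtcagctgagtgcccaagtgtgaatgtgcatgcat
numb, intron, 4720 bp after the second TSS (chr2L:9454450-9454650): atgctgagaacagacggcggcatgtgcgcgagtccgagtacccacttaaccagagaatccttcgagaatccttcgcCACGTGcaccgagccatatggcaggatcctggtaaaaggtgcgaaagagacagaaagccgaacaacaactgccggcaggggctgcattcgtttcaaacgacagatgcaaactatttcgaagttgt
numb, 145 bp before the second TSS (chr2L:9449585-9449785): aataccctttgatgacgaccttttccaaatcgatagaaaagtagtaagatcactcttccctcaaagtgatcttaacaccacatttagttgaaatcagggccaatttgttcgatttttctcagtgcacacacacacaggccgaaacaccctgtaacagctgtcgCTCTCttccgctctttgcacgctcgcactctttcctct
brat, 729 bp before the third TSS (chr2L:19165038-19165238): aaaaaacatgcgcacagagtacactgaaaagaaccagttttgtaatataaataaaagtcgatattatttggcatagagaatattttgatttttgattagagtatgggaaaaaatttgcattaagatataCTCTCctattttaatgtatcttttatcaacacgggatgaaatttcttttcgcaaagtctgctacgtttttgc

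The upstream spdo summit held 3 of these sites within 40 bp of it. CAGGTAG was centred 7 bp before the summit, CACGTG 27.5 bp after it and GCAGCTG 39 bp after it, so the E(spl) and proneural sites stand side by side. Of all 8549 IDR windows, 348 (4.07%) held CACGTG and 20 held it with GCAGCTG. This window was the only 1 of the 8549 with all 3, a combination chosen after its letters had been seen. GCAGCTG was in 2 of the 34 windows at the 8 genes (5.88%), against 3.38% of all IDR windows. The other window was at a brat intron summit (signal 510), with a CACNAG match 16.5 bp and GCAGCTG 24 bp after it. At positions 1000 bp from the 34 summits, GCAGCTG was in 5 of 60 (8.33%). CAGGTAG was in 0.994% of all IDR windows. The numb intron summit downstream of the second TSS held CACGTG 21.5 bp before the summit. The one upstream of it held CACGAG, of the CACNAG form, 5.5 bp before the summit and a Su(H) core 37 bp after it. The strong summits at the second TSS of numb and before the third TSS of brat held no Hairy or E(spl) site, and only a GAGAG match on the minus strand.

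pon (FBgn0025739, chrX:4636318-4639112, plus strand), whose product is the adaptor that helps Numb to the basal cortex, had no summit in the IDR list, the pooled list or the lists of replicates 2 and 3. Replicate 1 had 1 summit in the flank, 6899 bp from the TSS, with a signal of 78.4 and rank 16129. The nearest IDR summit lay 19.1 kb from its TSS. Among genes of like length, 40.7% also had no IDR summit in reach, so an empty gene of this length was common.

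mira (FBgn0021776, chr3R:19931799-19935120, minus strand) encodes Miranda, the adaptor that carries Prospero and Brat. It lies within the gene Hs6st. Its single IDR summit lay 227 bp upstream of the first of its 2 TSSs, which are 122 bp apart, with a signal of 369.6 and IDR rank 6507. Replicates 1, 2 and 3 gave signals of 133.3, 114.1 and 115.5 and ranks of 9530, 5056 and 6680. All 3 replicates found it, none among their strongest 5000 peaks.

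pros (FBgn0004595, chr3R:11328480-11407627, plus strand) encodes the homeodomain factor that ends self-renewal in the smaller daughter, and it is the longest of the 8. It has 4 TSSs. The 3 at its start, within 6500 bp of one another and used by 1 annotated transcript each, had no summit within 500 bp in the IDR or the pooled list. The fourth, 44308 bp from the start and used by 3 transcripts, had a weak summit 40 bp upstream, within an exon of the 3 transcripts that start upstream. Its signal was 314.9 and its ranks in replicates 1, 2 and 3 were 9867, 7505 and 9607. The strongest summit inside pros lay 3913 bp before this TSS, in an intron, with a signal of 1150.4 and ranks of 1423, 1364 and 1722. The internal site thus outranked the promoter in every replicate.

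A second intron summit of pros, with a signal of 654.5 and ranks of 2545, 2331 and 7817, falls in an exon of the nested genes KP78a and KP78b. The highest signal within 5000 bp of pros, 2673, with ranks of 403, 392 and 254, was 76 bp from the TSS of Irbp, past the end of pros. It is also within 500 bp of the TSS of mgr. It was counted at pros by distance alone and was classed as a promoter summit of other genes.

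brat (FBgn0010300, chr2L:19133816-19179758, plus strand) encodes the translational repressor that restrains growth in the smaller daughter. It held 14 of the 34 IDR summits, 9 of them in introns, and 22 of the 13945 genes had more. Among genes of like length, the median was 3 summits, and 97.8% had fewer than brat. By contrast, numb and baz had 5 each, where 75.6% and 70.1% of genes of like length had fewer. At 4 summits pros exceeded 54.6% of its length class.

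The strongest brat summit, with a signal of 3206, lay in an intron 729 bp upstream of the third TSS, which 1 transcript uses. Replicates 1, 2 and 3 gave signals of 1379.5, 725.9 and 1135.3 and ranks of 230, 223 and 218. Its weakest replicate rank was 1.06 times its strongest, so the replicates placed it almost alike. By distance it falls outside the promoter class, and at 1000 bp it would fall inside. It ranked 45th of the 3170 IDR summits in introns. The first TSS of brat had a summit 182 bp upstream (signal 895.2, ranks 2605, 2273 and 1913), which also lies 151 bp from a TSS of the overlapping gene Polr1D. The second TSS had a summit 21 bp upstream, in an exon of lncRNA:CR44977. This summit had a signal of 541.5 and ranks of 2812 and 5993 in replicates 1 and 3. The nearest summit of replicate 2 was 106 bp away at rank 3575.

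The remaining brat intron summits were mostly weak. Of the 9, 7 had signals between 320.4 and 510, and the next lay 8072 bp from the start with 1134 and ranks of 1827, 1427 and 1187. One of the 7, with a signal of 341.4, also lies within 500 bp of the TSS of lncRNA:CR44977. A summit 1361 bp into the gene (1037.3) was at a TSS of Polr1D and had ranks of 914, 2498 and 4465. Its weakest rank was 4.89 times its strongest, the highest such ratio of the 32 summits ranked in all 3 replicates. A pair upstream of brat (828.1 and 480.4) lay between the divergent TSSs of AsnRS and DCTN6-p27.

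baz (FBgn0000163, chrX:17160006-17200728, plus strand) encodes Bazooka, the apical scaffold also known as Par-3. It had no IDR summit at its single TSS. The pooled list had one 29 bp downstream of it, at rank 11578, with ranks of 9576, 15953 and 13890 in replicates 1, 2 and 3. The highest signal among the 8 genes, 4058, stood at 17178673, 18667 bp into the gene, with IDR rank 126. Replicates 1, 2 and 3 gave it signals of 1919, 871.2 and 1287.1 and ranks of 104, 136 and 164. The position lies in a 5′ untranslated exon of 3624 bp that 2 of the 4 annotated transcripts include, and it is intronic in the other two. Of the 128 IDR summits in exons away from promoters it was the strongest. The same exon held a second summit, with a signal of 793.6 and ranks of 2144, 3986 and 2910. The 3 intron summits of baz lay between 10616 and 21696 bp from the TSS, with signals of 767, 507.7 and 426. The second of these, 14379 bp from the TSS, was placed almost alike by the replicates, at 4752, 4767 and 4895. No IDR summit lay in the rest of baz.

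insc (FBgn0011674, chr2R:20821262-20836028, minus strand) encodes Inscuteable, the adaptor between the apical complex and the spindle. Its TSS is also the TSS of sktl, which overlaps it on the same strand. The shared promoter had a summit 149 bp downstream, with a signal of 353.4 and ranks of 6449, 5466 and 9483 in replicates 1, 2 and 3. Stronger summits lay on both sides of it. One was in an intron of both genes, 4987 bp from the TSS, with a signal of 711.5 and ranks of 3004, 3197 and 2975. The other was 2068 bp upstream, within lncRNA:CR44667, with 801 and ranks of 3088, 2012 and 2342. Reads at this promoter cannot be divided between insc and sktl.

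Across the 6 genes with one, the highest promoter signal had a median of 425.5, against 712.9 over all genes with a promoter summit, and 2 of the 6 stood above that value. Of the 8 promoter summits 6 lay upstream of the TSS and 2 downstream, from 227 bp upstream to 149 bp downstream. Of the 15 TSSs of the 8 genes, 9 had an IDR summit within 500 bp, against 26.4% of the 19252 TSS positions of protein-coding genes. The 2 TSSs of mira share 1 summit, so the 9 rest on 8 summits. At numb, pros and brat, the 3 genes of the 8 with widely spaced TSSs, the summit with the highest signal in the gene body lay 145, 3913 and 729 bp before an internal TSS. Of these, only the numb summit lay within the 500 bp that define a promoter summit. Every IDR summit in the bodies of pros and brat lay before the last TSS of its gene, so this position does not set the strongest apart. How often it occurs at other genes was not counted.

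**Figure D2:**
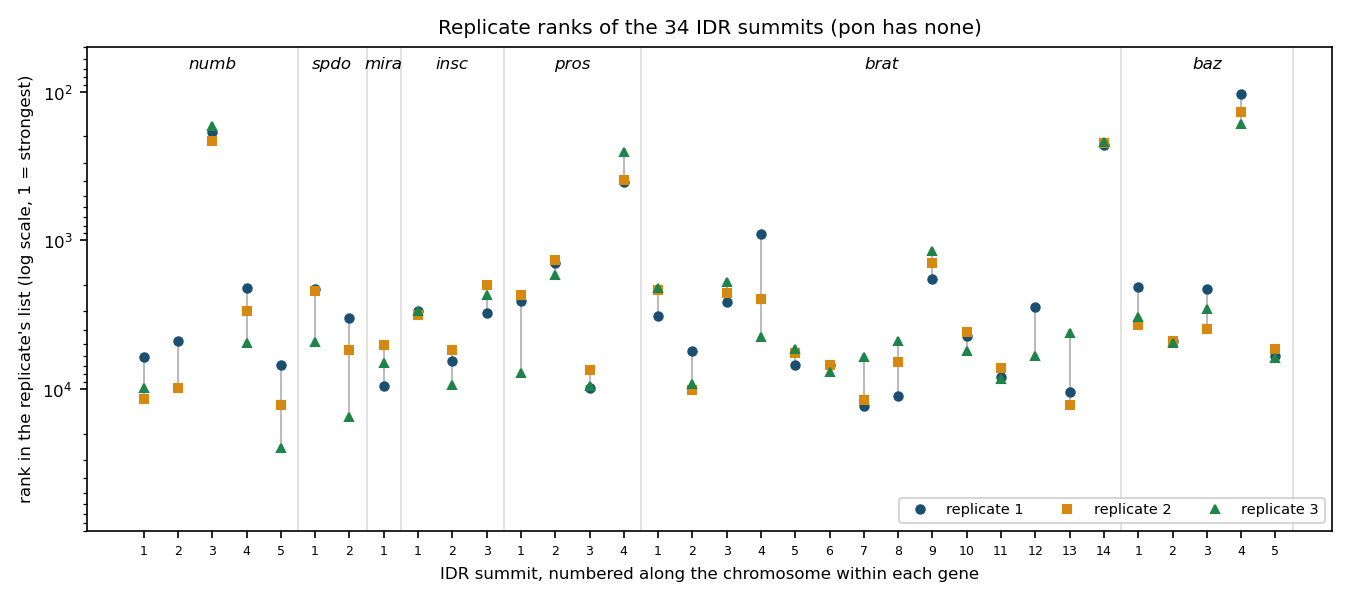
Rank of each of the 34 IDR summits in the list of each replicate (log scale, strongest at the top), grouped by gene and numbered along the chromosome; grey lines join the replicates. The strongest site of brat, its 14th, has ranks of 230, 223 and 218, and weak sites such as the fifth of numb (6891, 12836 and 24987) spread widely.

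Most of these sites were found in every replicate. Of the 34 IDR summits, 32 (94.1%) had a summit within 100 bp in all 3 replicate lists, against 87.4% of all IDR summits. All 34 lay inside a peak of every replicate, a share that was not counted over all IDR summits. The IDR list derives from the replicate lists, so this overlap is not independent of them. Counting only the 8549 strongest peaks of each replicate, 21 (61.8%) were found in all 3, against 63.5% of all IDR summits. Over the 32 the weakest replicate rank was a median of 1.58 times the strongest, and 5 differed by 3 times or more. The weakest rank came from replicate 1 at 11 summits, from replicate 2 at 7 and from replicate 3 at 14. In strength the 34 sat close to the list as a whole. Their median signal was 525.8, against 535.3 in the whole IDR list, and 11.8% of them were among its strongest 1000, against 11.7% of all.

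Below the reproducible list, the pooled list added 72 summits at the 8 genes, 106 in all. The highest pooled signal of the 72 was 274, and the weakest peak of the IDR list had 286.5. At these genes the IDR list is thus the upper part of the pooled list by signal. Of the 72, 48 were in introns, 7 at promoters of the genes and 9 in flanks, and 21 were found within 100 bp in all 3 replicates. The lists of replicates 1, 2 and 3 held 108, 110 and 104 summits at the 8 genes. In each of them, as in the pooled list, 7 of the 8 genes had a promoter summit, baz being added and pon still without. The share of all protein-coding genes with a promoter summit was not counted in these longer lists, so 7 of 8 has no background here.

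**Figure D3:**
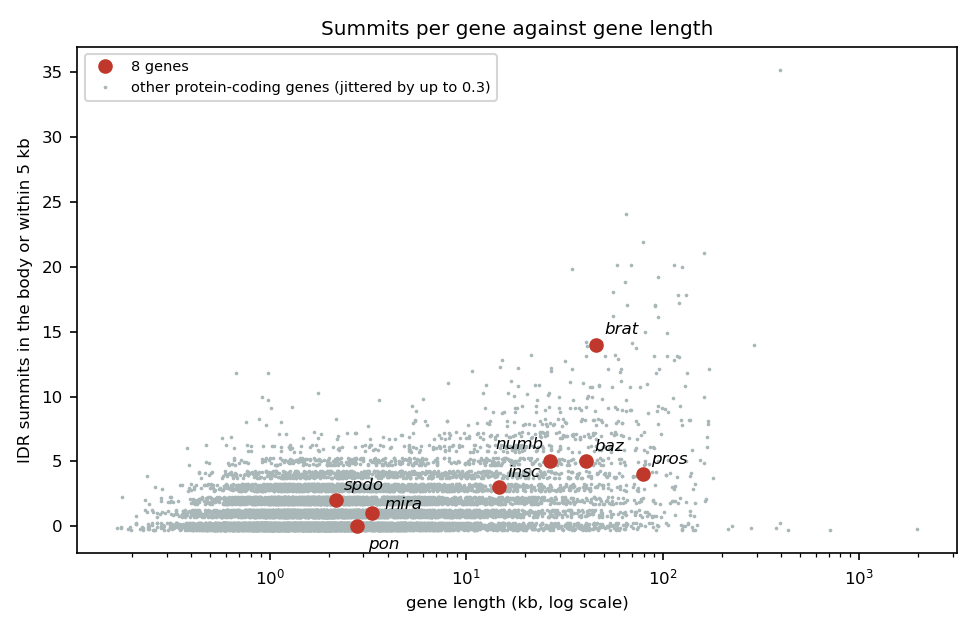
IDR summits in the gene body or within 5 kb against gene length (kb, log scale) for the 8 genes (red) and the other protein-coding genes (grey, jittered). brat stands high for its length at 14 summits, numb and baz have 5 and pon has 0.

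Sites for Hairy and E(spl) proteins were searched for within 100 bp of every summit. At least 1 of the 3 forms was in 13 of the 34 windows (38.2%, exact 95% interval 22.2 to 56.4%), against 27.4% of all IDR windows. Of 60 positions 1000 bp from these summits, 13 (21.7%, interval 12.1 to 34.2%) held one. The intervals overlap, and with 34 windows they are wide. CACGTG was in 2 windows, those of spdo and numb shown above. CACGCG was in 3 (8.82%), against 7.23% of all IDR windows and 3.33% of the positions 1000 bp away. CACNAG was in 11 of the 34 (32.4%, interval 17.4 to 50.5%), against 19.0% of all IDR windows and 18.3% of those positions, and so was in most of the 13. At the first TSS of numb CACGCG was 20.5 bp from the summit, and it was also in the windows of the brat summit at Polr1D and of the pros summit in KP78a and KP78b. Of the 11 with CACNAG, the shared promoter of insc and sktl held 2 copies, 19.5 bp before and 23.5 bp after the summit. GAGAG was in 9 of 34 (26.5%), against 23.0% of all IDR windows and 13.3% of the positions 1000 bp away. A Su(H) core was in 2 windows, GTGGGAA in numb (2.2% of all IDR windows) and GTGAGAA at the divergent promoters beside brat (2.42%). The window with GTGAGAA also held TATCGATA, as did 2.95% of all. GCAGGTG was in 0 of 34 windows and in 1.29% of all. Of the 4 summits among the strongest 1000, 0 held a Hairy or E(spl) site, against 21.4% of all 1000, and 4 windows are too few to set apart from that share.

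**Figure D4:**
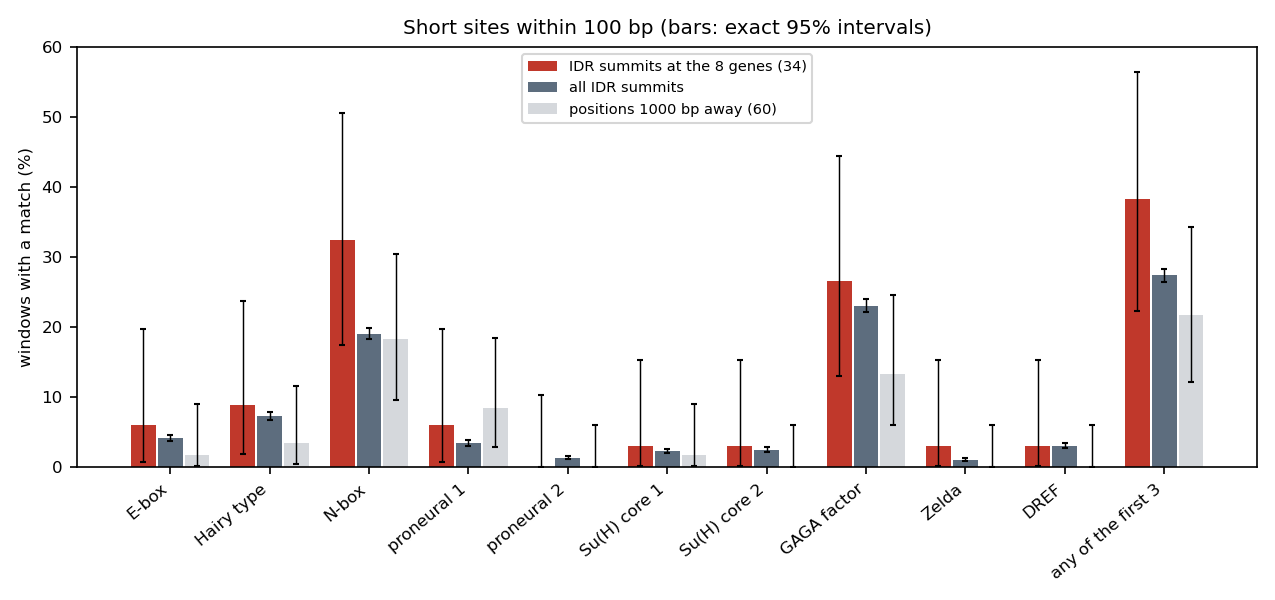
Share of windows (100 bp on each side) with a match to each of the 10 short sites and to any of the first 3, for IDR summits at the 8 genes (red, 34 windows), all IDR summits (dark grey, 8549) and positions 1000 bp away (light grey, 60). Error bars are exact 95% binomial intervals and cover counting of windows only; the red intervals are wide and overlap the grey ones.

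A further 24 genes, listed with earlier results known and called machinery genes here, include transcription factors such as wor as well as division proteins. Of these 24, 17 (70.8%) had a promoter summit, against 28.1% of all protein-coding genes. Among genes of like length to any of the 24, between 24.3% and 46.6% had one. The count of 17 also depends on weak peaks. For most of these 17 genes, the highest promoter signal lay below 535.3, the median of the IDR list. Among the stronger IDR peaks, above that median, 18% of all protein-coding genes had a promoter summit. The share of the 24 genes was not computed for those stronger peaks. An intron summit was present at 8 of the 24, against 9.62% of all protein-coding genes. These 8 had a median length of 18966 bp, and between 5.28% and 61.0% of genes of like length to each had an intron summit. The 16 without an intron summit had a median length of 3641 bp, and between 0.533% and 40.8% of genes of like length to each had one. The highest promoter signals were at cnn, which encodes the centrosomal protein Centrosomin (2753.5), wor, a Snail family factor of neuroblasts (1799.5), par-6, the partner of Bazooka and aPKC (1340.9), and aurA, the mitotic kinase that phosphorylates polarity proteins (1086.5). Among partners of Inscuteable and Bazooka, the kinase gene aPKC reached 740, pins 386.1 and Galphai 306.8. Cdc42, l(2)gl, mud, polo, Khc-73, ase and dpn had none at their promoters, and l(2)gl and polo had no IDR summit within 5000 bp.

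The genes most alike in IDR summits, by an equal number of promoter and of intron summits and the nearest highest promoter signal, were Awh for numb (2 and 3 summits; 3501.2, chosen from 21 genes), Cdk4 for pros (315, from 123), apt for brat (2 and 9 summits; 692.4, from 3) and sktl for insc, which shares its promoter. For spdo and mira, with 1 promoter and no intron summit like 2658 other genes, they were CG33465 and Sema2a.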

How the data were processed

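The authors deposited peak lists on the dm6 build with a signal per peak. Per the provenance records among the deposited files, peaks were called separately in each replicate and on the merged replicates, with 1 shared control alignment, and the IDR list derives from those. Aligner, caller and IDR threshold: not given in the sources used here. Depth is unknown. Peaks on the 6 chromosome arms were used, which left out 5 peaks of replicate 1. Summits are the peak start plus the deposited offset, 1-based. Genes, TSSs and exons come from Ensembl release 115, and sequence from the RefSeq copy of the Release 6 assembly, the same assembly as dm6: every peak ended within its arm. A summit was classed in the order own promoter, promoter of another protein-coding gene, untranslated or coding exon, intron and flank.

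A replicate holds a summit when its list has one within 100 bp. Positions 1000 bp away were used where more than 300 bp from any IDR summit. The 3 replicates come from separate biosamples and no 2 shared an identical summit and signal. Python 3.11.15, pandas 2.3.3 and scipy 1.17.1 were used, and class, site and matching functions were tested on planted positions. No test between groups was possible with 1 group, so lists and classes are described by counts beside all genes or all IDR summits. Intervals on shares are exact binomial and cover counting only. The named genes were all 8 members, the 4 of 24 listed machinery genes with the highest promoter signal, neighbours with a TSS near a counted summit, and the most alike gene. Outside that rule, and after their values were seen, 3 more machinery genes (signals 740, 386.1 and 306.8), the 7 with no promoter summit, and the genes whose body or exon holds a member or a counted summit (PH4alphaEFB, Hs6st, KP78a, KP78b and lncRNA:CR44667) were named. The members and lists were chosen with earlier results of these data known. The alternatives were the 4274 strongest IDR peaks, the pooled list, merged summits, other promoter, flank and match distances, other windows and leaving out each replicate.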

Additional observations from a re-analysis of the deposited data

How the results depend on the processing

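No paired analysis was possible because the samples form 1 group. Of the 65 recomputed counts, 51 stayed within 1.5 times the reported value. The 51 include the counts after merging summits within 150 bp, which could not change, since no IDR summits of these genes lie that close. Among the 4274 strongest IDR peaks the 8 genes held 17 summits, 3 at promoters of 2 genes (numb and brat) and 7 in introns, 16 were found in all 3 replicates, and 5 held a Hairy or E(spl) site, 1 of them at a promoter; a shorter list holds fewer by construction. The pooled list gave 106 summits, 15 at promoters and 66 in introns. Counting the gene body alone left 5 promoter summits, since upstream ones fall outside it. With only the strongest replicate peaks, 21 summits were found in all 3, and with a match of 50 bp 23. Windows of 50 and 200 bp on each side gave 8 and 20 summits with a Hairy or E(spl) site. At a promoter distance of 1000 bp the highest promoter signal of brat was 3206.1 in place of 895.2. Without each replicate in turn, requiring both others, 6 genes had a promoter summit, and 32 to 33 summits were left, with 7 to 8 at promoters and 17 to 18 in introns. All 3 replicates went into the IDR list, so these subsets are not independent of the replicate left out. Depth is unknown, so weak sites absent from a list are not shown to be unbound.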
